A study of Mus musculus with 42 samples.

Results

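Binding of induced Hox transcription factors was followed at 9 genes of Sonic hedgehog signalling, Shh, Ptch1, Boc, Cdon, Hhip, Smo, Gli1, Gli2 and Gli3, out of 21951 protein-coding genes of the GENCODE M21 annotation of the mouse. The genes were named by their place in the pathway and not by any measured value. Each was given a window that reaches from 50 kb before to 50 kb after the gene on build mm10, 1752 kb in all, and every binding event inside a window was taken. Of 1087512 events in 21 lists, 1214 lay in these windows.

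Sonic hedgehog is the secreted ligand that patterns the ventral spinal cord, where motor neurons arise. It binds the receptor PTCH1, which otherwise holds the transducer SMO inactive, with help from the co-receptors BOC and CDON, while HHIP at the cell surface binds and sequesters the ligand. Active SMO controls the zinc finger factors GLI1, GLI2 and GLI3, of which GLI2 is mainly an activator, GLI3 is largely processed to a repressor, and Gli1, Ptch1 and Hhip are themselves turned on by the pathway. The agonist SAG used in motor neuron differentiation acts directly on SMO.

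Chromatin was immunoprecipitated and sequenced (ChIP-seq) in mouse embryonic stem cell lines grown as embryoid bodies (EBs) and directed towards spinal neurons. The 42 samples form 23 groups by their labels, of which 21 have an event list and 2 are control libraries without a list analysed here. Each inducible line carries a single copy of 1 tagged Hox gene at the Hprt locus, expressed only when doxycycline (Dox, 3 µg/mL) is added, so the bound protein is a tagged transgene product in every HOX list and no group measures an endogenous HOX protein. Lists pool the libraries of a condition.

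At day 3, cells had received 1 µM retinoic acid (RA) and 0.5 µM SAG from day 0 and Dox for 24 h. The full-length factors at day 3 were the central factors HOXC6 and HOXC8 and the posterior factors HOXC9, HOXA9, HOXD9, HOXC10 and HOXC13. Most libraries used a Flag antibody on a Flag-tagged line. The second HOXA9, HOXD9 and HOXC13 libraries came from HA-tagged lines, and the first of the 3 HOXC10 libraries came from a V5-tagged line with another antibody. Where these lists are set beside Flag-only lists, factor and tag antibody cannot be told apart. The 4 chimeras, also Flag-tagged and at day 3, join the amino-terminal part of the factor named first to the homeodomain and carboxy-terminal end of the factor named second, so the DNA-binding domain is that of HOXC10 in HOXC13:C10.1 and HOXC13:C10.2. It is that of HOXC13 in HOXC10:C13.1 and in HOXC10:C13.2. At day 4, with 48 h of Dox and the same RA and SAG, HOXC6, HOXC9 and HOXC10 were assayed in Flag-tagged lines. HOXC6 and HOXC9 were also assayed in EBs after 12 h of Dox, for which the labels name neither RA nor SAG. The endogenous cofactor MEIS was assayed at day 3 in V5-tagged iHoxc6, iHoxc9 and iHoxc10 lines, and PBX at day 4 in the Flag-tagged iHoxc9 and iHoxc10 lines. The lists hold binding only, so the labelled cell type could not be checked against marker expression, and a site bound in more cells cannot be told apart from a site bound more strongly in each cell.

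The 40 libraries behind the lists held between 5.04 and 32.9 M reads each. The signal fraction set by the authors' caller lay between 0.008 and 0.527. List length ran from 848 to 128388 events, and 5 lists (MEIS and PBX) rest on 1 library. An estimated ChIP read count belongs to an event within its own list. Depth, signal fraction and control library differ between lists, so counts from different lists are set side by side and not compared as signal. The position of an event in its list is given as a percent rank by q-value, where 1% means that the event is among the strongest 1% of that list. Where events of different lists are ordered, the order is by percent rank. It moves with list length and can differ from the order by rank number. Because replicates were pooled before deposition, no value has an error between differentiations. Shares carry an exact 95% binomial interval that covers the counting of sites only, beside the same share over the whole list.

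The sequences of the sites that occur in the most lists for each gene are shown first, since the results return to them. They are the plus strand of mm10, 101 bases around the middle of the merged site, with the words TAAT, TTTAT and TTTAC, on either strand, in capitals. TAAT is the core homeodomain word, TTTAT the posterior Hox word and TTTAC a word of HOXC13. Sites are named by their distance from the start of the gene, where a plus sign means downstream of it.
Shh +7.88 kb (chr5:28459323-28459423): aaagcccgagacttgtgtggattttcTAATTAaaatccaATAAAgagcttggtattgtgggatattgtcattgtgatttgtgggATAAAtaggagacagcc
Ptch1 +18.9 kb (chr13:63554681-63554781): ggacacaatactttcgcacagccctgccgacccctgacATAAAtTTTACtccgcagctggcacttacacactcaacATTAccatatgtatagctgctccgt
Boc +27.7 kb (chr16:44531101-44531201): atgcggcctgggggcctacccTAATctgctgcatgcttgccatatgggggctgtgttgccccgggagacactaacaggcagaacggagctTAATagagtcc
Cdon +124 kb (chr9:35544730-35544830): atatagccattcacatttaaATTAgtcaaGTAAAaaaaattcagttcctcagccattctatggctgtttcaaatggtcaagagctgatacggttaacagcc
Hhip +3.59 kb (chr8:80054363-80054463): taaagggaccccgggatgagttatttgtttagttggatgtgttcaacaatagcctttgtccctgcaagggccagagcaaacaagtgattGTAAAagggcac
Smo +73.7 kb (chr6:29809200-29809300): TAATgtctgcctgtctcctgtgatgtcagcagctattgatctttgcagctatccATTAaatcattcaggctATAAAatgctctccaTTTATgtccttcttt
Gli1 +52.6 kb (chr10:127289331-127289431): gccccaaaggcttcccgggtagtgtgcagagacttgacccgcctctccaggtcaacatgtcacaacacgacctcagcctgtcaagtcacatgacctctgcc
Gli2 +136 kb (chr1:118917666-118917766): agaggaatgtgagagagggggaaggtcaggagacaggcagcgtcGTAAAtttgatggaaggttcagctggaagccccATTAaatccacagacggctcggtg
Gli3 +81.1 kb (chr13:15544324-15544424): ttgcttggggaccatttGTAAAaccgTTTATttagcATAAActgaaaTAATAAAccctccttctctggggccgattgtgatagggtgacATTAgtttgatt
The next 4 sites are those with the best-ranked stage-specific event of HOXC6 and HOXC9.
Ptch1 +43.0 kb, HOXC6 in EBs but not at day 3 or day 4 (chr13:63530550-63530650): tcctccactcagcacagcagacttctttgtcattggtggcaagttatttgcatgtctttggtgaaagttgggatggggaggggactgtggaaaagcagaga
Cdon +74.9 kb, HOXC9 in EBs but not at day 3 or day 4 (chr9:35496001-35496101): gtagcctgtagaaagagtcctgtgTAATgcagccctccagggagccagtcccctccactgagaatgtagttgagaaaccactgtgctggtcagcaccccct
Gli2 +6.09 kb, HOXC6 at day 3 and day 4 but not in EBs (chr1:119047484-119047584): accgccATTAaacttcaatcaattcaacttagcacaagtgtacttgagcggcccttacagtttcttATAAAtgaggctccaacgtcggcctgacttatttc
Gli2 +194 kb, HOXC9 at day 3 and day 4 but not in EBs (chr1:118859297-118859397): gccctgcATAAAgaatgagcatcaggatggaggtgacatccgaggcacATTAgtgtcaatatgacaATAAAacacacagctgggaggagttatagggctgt
The last 2 hold the best-ranked event of any HOX list at Cdon and at Gli3, and their sequences were chosen for printing after their values were seen.
Cdon +45.0 kb (chr9:35466044-35466144): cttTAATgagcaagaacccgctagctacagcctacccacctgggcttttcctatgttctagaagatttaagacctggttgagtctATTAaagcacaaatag
Gli3 +137 kb (chr13:15600475-15600575): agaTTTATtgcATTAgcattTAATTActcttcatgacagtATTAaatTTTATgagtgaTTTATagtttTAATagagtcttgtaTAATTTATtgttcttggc
Word content varied among these sites. The Gli3 +137 kb sequence held 6 TAAT, 4 TTTAT and 1 TGATTTAT, the composite word of a PBX-Hox pair. It also held 1 TGACAG, the word of MEIS. The Gli1 +52.6 kb sequence held 1 TGACAG too, but none of TAAT, TTTAT or TTTAC. The Ptch1 +43.0 kb sequence held none of these words.

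Merging events within 100 bp of each other gave 387 sites. Of these, 177 occurred in 1 list, 114 in 2 or 3, 67 in 4 to 9 and 29 in 10 or more. The Gli3 window held 85 sites, Gli2 69, Hhip 65, Ptch1 58, Cdon 41, Boc 23, Smo 22, Gli1 14 and Shh 10. Per length the order was different, with 35.1 sites per 100 kb of window at Ptch1, 33.8 at Hhip, 23.2 at Gli3, 22.0 at Cdon, 21.6 at Gli2, 17.5 at Smo, 13.23 at Boc, 12.5 at Gli1 and 9.05 at Shh. Most sites lay inside a gene and few near a start, counts that were not set against the length of each part. Of the 387 sites, 267 were in the member gene itself (257 of them in introns), 49 in another gene and 71 between genes, and 7 lay within 1 kb of a member's start.

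**Figure D1:**
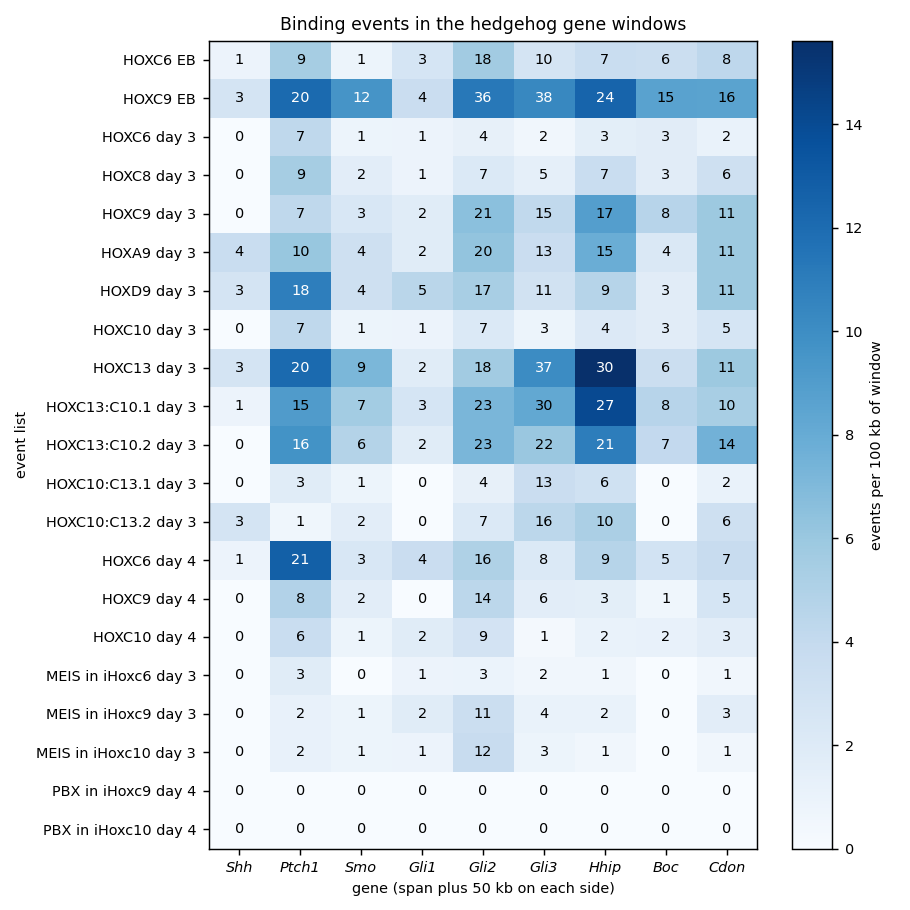
Number of binding events in each gene window (columns) for each of the 21 event lists (rows); the digits are event counts and the colour is events per 100 kb of window. HOXC9 in EBs had 38 events at Gli3 and HOXC13 at day 3 had 30 at Hhip, while the PBX rows hold 0 in every window.

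The windows were richer in events than those of a typical gene. The median over the 9 members was 4.24 HOXC9 events per 100 kb at day 3 against 0.98 over all 21938 protein-coding windows, 5.90 against 2.59 for HOXC13 and 1.07 against 0 for HOXC6. The members' median lay above that of all genes in 16 of 16 HOX lists, which share sites and are not independent of each other. Among the 10000 best-ranked events of a list, at least 1 fell in 6 of the 9 windows for day 3 HOXC6 (25.4% of all protein-coding windows), in 6 of 9 for day 3 HOXC9 (19.1% of all) and in 5 of 9 for day 3 HOXC13 (25.7% of all). The windows of the members are longer, with a median of 173.8 kb against 117.4 kb, and the part of length in these last counts was not tested.

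Shh (chr5:28456815-28467256, minus strand), the ligand gene, had the fewest events. It held 19 events in 8 of the 21 lists and none in those of day 3 HOXC6, HOXC8, HOXC9 or HOXC10, of day 4 HOXC9 or HOXC10, or of MEIS. The lists of the group 9 paralogs differed here, with 4 HOXA9 events and 3 HOXD9 events but 0 HOXC9 events at day 3. The HOXA9 and HOXD9 lists include an HA library and the HOXC9 list does not, so paralog and antibody cannot be told apart. At the intronic Shh +7.88 kb site HOXA9 had 299.3 estimated ChIP reads (rank 7.67%), HOXD9 194.6 (11.8%), HOXC13 119.6 (35.6%) and day 4 HOXC6 171.9 (23.4%). These 4 lists made it the most widely found Shh site, and it was not found in EBs, where HOXC9 had 3 events in the window. A promoter site 0.158 kb downstream of the start held 111.6 HOXD9 and 59.1 HOXA9 reads. Distant enhancers of Shh lie outside the window and were not used here.

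Ptch1 (chr13:63508328-63573598, minus strand), the receptor gene, was bound in all 16 HOX lists and in the 3 MEIS lists. Its 184 events fell into 58 sites, 39 of them in its introns, and 6 sites occurred in 10 or more lists. The intronic Ptch1 +18.9 kb site occurred in 16 lists and held the best-ranked Ptch1 event of any HOX list. HOXD9 ranked at 0.26% with 893.9 reads and HOXA9 at 0.63% with 974.1 reads. HOXC9 there had 753.8 reads in EBs (5.27%), 597.6 at day 3 (5.92%) and 686.9 at day 4 (2.40%), so the site was bound at every stage. HOXC6 had 438.5 reads in EBs (7.39%), 64.9 at day 3 (40.7%) and 884.7 at day 4 (1.64%), a lower rank at day 3 than at the stages on either side. HOXC10 had 236.3 reads at day 3 and 485.9 at day 4 (1.53%). HOXC13 and both chimeras with the HOXC13 homeodomain had no event at this site, whereas the chimeras with the HOXC10 homeodomain had 546.6 (9.88%) and 964.3 reads (2.50%).

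Other Ptch1 sites carried other combinations. The Ptch1 +47.3 kb intronic site, singled out after its values were seen, was found in 15 lists. HOXC9 had 88.2 reads there in EBs, 898.5 at day 3 and 932.6 at day 4, and the last was the best-ranked day 4 HOXC9 event of the window at 1.25%. The best-ranked HOXC13 events lay near the start of the gene, with 565.5 reads at +1.78 kb (4.75%) and 338.3 reads at +0.118 kb, in an untranslated part of an exon (8.92%), where HOXD9 had 67.6 reads and no other list had an event. The HOXC10:C13 chimeras had only 3 and 1 events in the window, against 20 for HOXC13 itself.

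Boc (chr16:44485049-44558897, minus strand) and Cdon (chr9:35421128-35507652, plus strand) encode related co-receptors of the ligand. Boc held 74 events in 23 sites and had no event in any MEIS list or HOXC10:C13 list. Its most widely found site, Boc +27.7 kb, occurred in 13 lists but ranked at best at 20.1% (HOXC13:C10.1, 289.8 reads) and at worst at 86.8% (HOXC9 in EBs, 79.4 reads). A neighbouring intronic site at +24.6 kb was better ranked for the central factor HOXC8, with 617.3 reads (2.71%), and held 348.2 reads of day 4 HOXC6 (8.29%) and 577.8 of EB HOXC9 (7.60%), but 135.2 of day 3 HOXC9 (33.8%) and no HOXC10 event. The best HOXC13:C10.1 event of the window lay 20.8 kb upstream of the start with 1234.3 reads (2.73%), where HOXC13:C10.2 had 269.4 reads (15.3%), day 3 HOXC9 136.2 (33.5%) and neither parent an event.

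Cdon held 133 events in 41 sites, 28 of them in its introns. The Cdon +45.0 kb site held the best-ranked event of all windows and lists. HOXC13 had 3374.5 reads there, rank 91 of 115879 (0.0785%). HOXC9 was also strong, with 1285.9 reads in EBs (2.07%), 1518.3 at day 3 (0.72%) and 735.1 at day 4 (2.12%). The group 9 paralogs were weaker in rank at the same site, with 188.2 HOXA9 reads (14.5%) and 45.9 HOXD9 reads (85.9%). No HOXC10 list had an event there, although both chimeras with the HOXC10 homeodomain did. HOXC13:C10.1 had 1279.7 reads (2.52%) and HOXC13:C10.2 had 216.6 (19.8%). HOXC10:C13.2 had 88.4 reads (38.5%) and HOXC10:C13.1 none. The most widely found site of the window, Cdon +124 kb, lay in an intron of the neighbouring gene Ddx25 and occurred in 12 lists, best for HOXC13:C10.1 with 1031.4 reads (3.73%).

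Hhip (chr8:79965851-80058006, minus strand), the gene of the ligand-binding inhibitor, held 198 events in 65 sites, 47 of them in its introns. Its +3.59 kb intronic site occurred in 16 lists. By percent rank day 4 HOXC6 stood first with 1025.2 reads (1.24%), before HOXD9 with 477.8 (1.50%). HOXA9 with 527.6 (2.41%) and day 4 HOXC10 with 258.8 (4.93%) followed. By rank number the order was HOXD9 (848), day 4 HOXC6 (860), day 4 HOXC10 (1085) and HOXA9 (1515). Day 3 HOXC10 had 47.3 reads (85.7%) and day 3 HOXC6 58.4 (47.2%), so both factors stood lower in their day 3 lists than in their day 4 lists. HOXC9 ranked at 68.6% in EBs with 132.4 reads, at 13.9% at day 3 with 305.5 and at 7.91% at day 4 with 346.4. MEIS was found at this site in iHoxc6 cells (78.2 reads, 29.6%) and not in the other two lines.

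Smo (chr6:29735503-29761365, plus strand), the transducer that SAG activates, had 0 of its 22 sites inside the gene itself. Of these, 20 lay in other genes, and both sites named by rank or spread lay in the neighbour Ahcyl2. The Smo +73.7 kb site in an Ahcyl2 intron occurred in 13 lists, best for HOXA9 with 294.8 reads (6.93%) and day 3 HOXC9 with 451.7 reads (8.40%). HOXC9 stood at 19.6% in EBs with 273.7 reads and at 86.3% at day 4 with 148.2 reads. By read count in place of q-value that day 4 event ranked at 27.3%. The best-ranked event was that of HOXC13 at +34.4 kb, in an Ahcyl2 exon, with 637.6 reads (3.37%), a site that otherwise held only HOXC13:C10.1 with 59.2 reads (71.4%). Only 4 of 16 HOX lists had a top 10000 event in the window, and which gene these sites act on was not measured.

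The effector genes differed widely. Gli1 (chr10:127329882-127341974, minus strand), a target of the pathway, had 14 sites, of which 1 was in Gli1 and 10 in other genes of this gene-dense window. Its most widely found site lay in an intron of Gm20492 and occurred in 12 lists, but no HOX event there ranked above 25.7% (HOXA9, 129.8 reads). Reads ranged from 38.9 (day 4 HOXC6) to 137.4 (HOXC13:C10.2), and the 3 MEIS lists had 40.5, 46.3 and 61.0. Only 1 of 16 HOX lists, that of day 4 HOXC10, had a top 10000 event in the window.

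Gli2 (chr1:118834132-119053619, minus strand) carried 270 events in 69 sites, 57 of them in its introns and none in another gene. It had 63 top 10000 events over the 16 HOX lists, against 31 at Ptch1 and 29 at Gli3. These counts are not per length, and the windows measure 319.5 kb at Gli2, 165.3 kb at Ptch1 and 366.8 kb at Gli3. The Gli2 +136 kb site occurred in 16 lists, with 1198.2 reads for HOXC9 in EBs (2.53%), 579.8 at day 3 (5.77%) and 169.1 at day 4 (27.1%), which is the reverse order of ranks to that at Hhip +3.59 kb. The chimeras HOXC13:C10.1 (1185.2 reads, 3.03%) and HOXC13:C10.2 (1286.4 reads, 1.34%) ranked above both HOXC13 (430.0 reads, 7.67%) and HOXC10 (215.9 reads, 16.1%) in their own lists. The Gli2 +151 kb site was strongest for HOXC9 in EBs with 2566.6 reads (0.57%), while HOXC9 had 162.6 at day 3 (24.0%) and 108.9 at day 4 (31.6%).

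Gli3 (chr13:15463235-15730026, plus strand) held the most widely found site of all. Gli3 +81.1 kb occurred in 19 of 21 lists, missing only those of PBX. HOXC13 stood at 0.45% with 1780.1 reads, day 4 HOXC6 at 1.04% with 1213.4 reads, HOXC8 at 2.23% with 711.4 and day 4 HOXC9 at 4.41% with 648.4. HOXC6 stood at 32.0% in EBs (143.8 reads) and 11.0% at day 3 (193.2), and HOXC9 at 25.7% (232.1) and 8.13% (454.9). Day 4 HOXC10 ranked at 19.1% by q-value but at 5.43% by its 320.5 reads. At Gli3 +137 kb, by contrast, both chimeras with the HOXC13 homeodomain and the HOXC10 amino terminus had their best event of all windows, with 757.3 reads (0.35%) and 853.4 reads (0.22%). HOXC13 had 423.4 reads there (6.58%), HOXD9 52.4 (72.0%) and EB HOXC9 51.9 (84.4%), and no other list had an event.

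**Figure D2:**
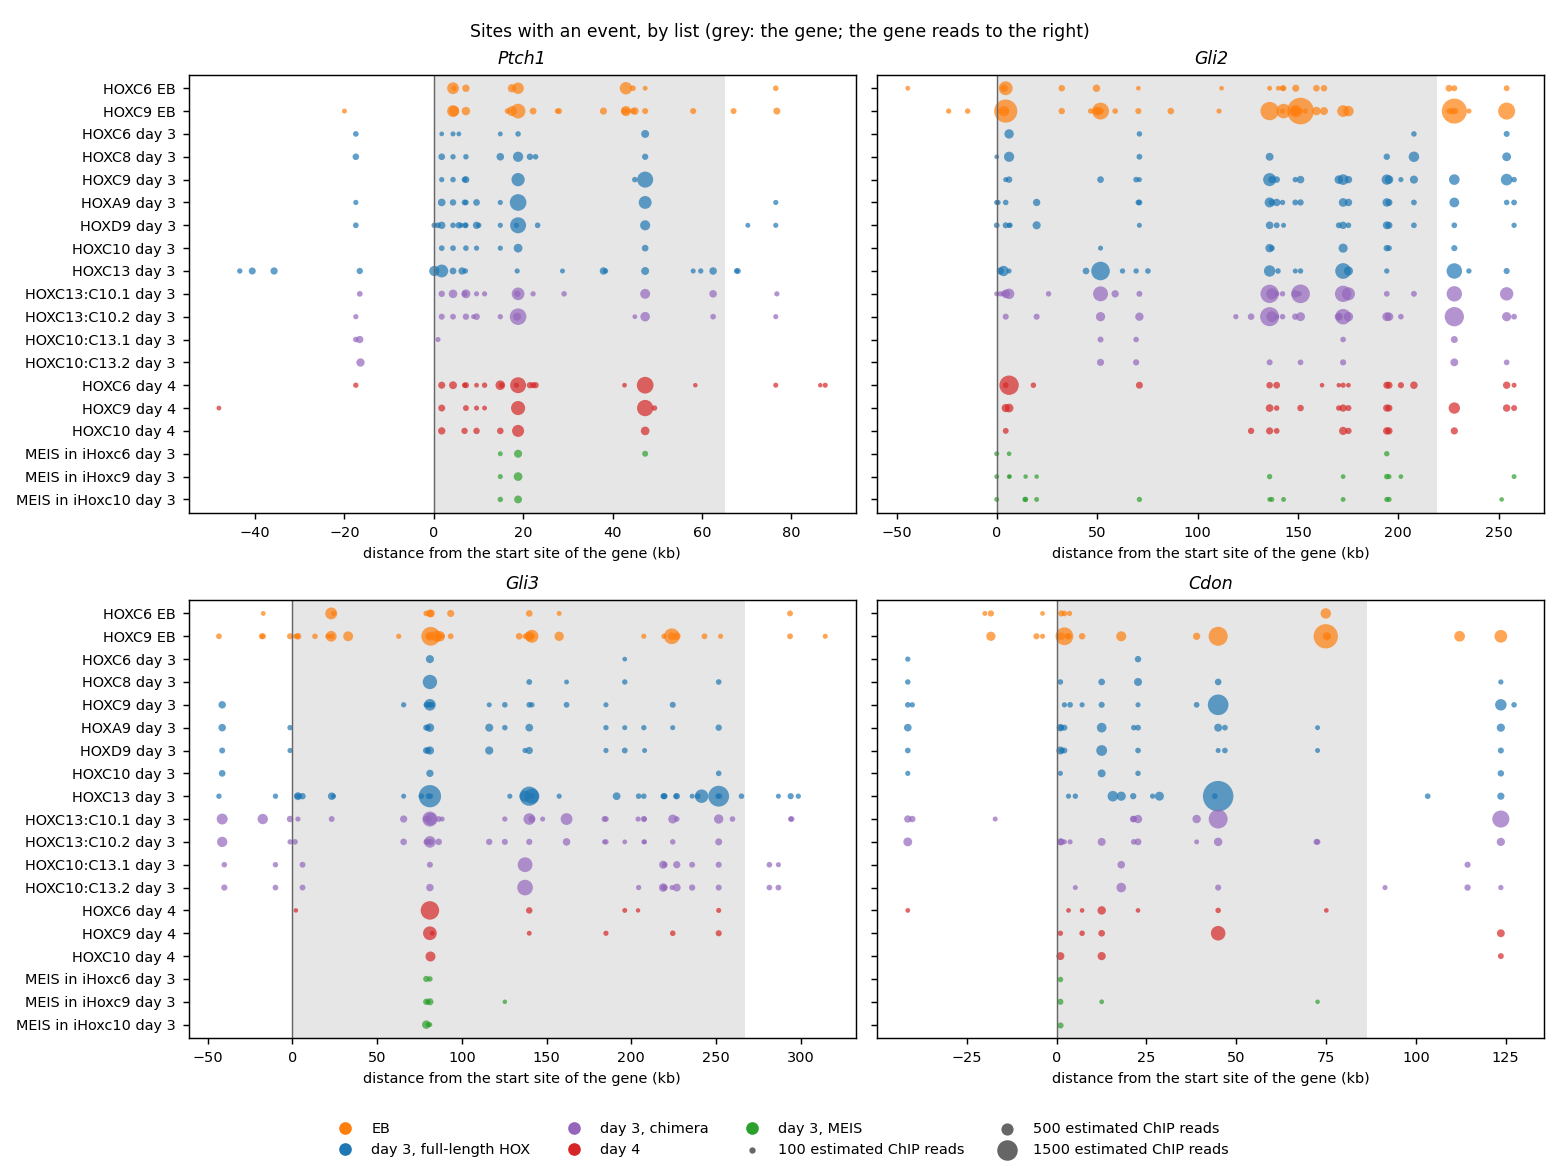
Sites with an event at Ptch1, Gli2, Gli3 and Cdon, plotted by their distance from the start of the gene in kb, with a row for each HOX and MEIS list; the area of a point grows with the estimated ChIP reads and grey marks the gene. The column of points 81.1 kb into Gli3 runs through all 19 rows, while the site 137 kb into Gli3 stands out in the HOXC10:C13.1 and HOXC10:C13.2 rows with 757.3 and 853.4 reads.

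**Figure D3:**
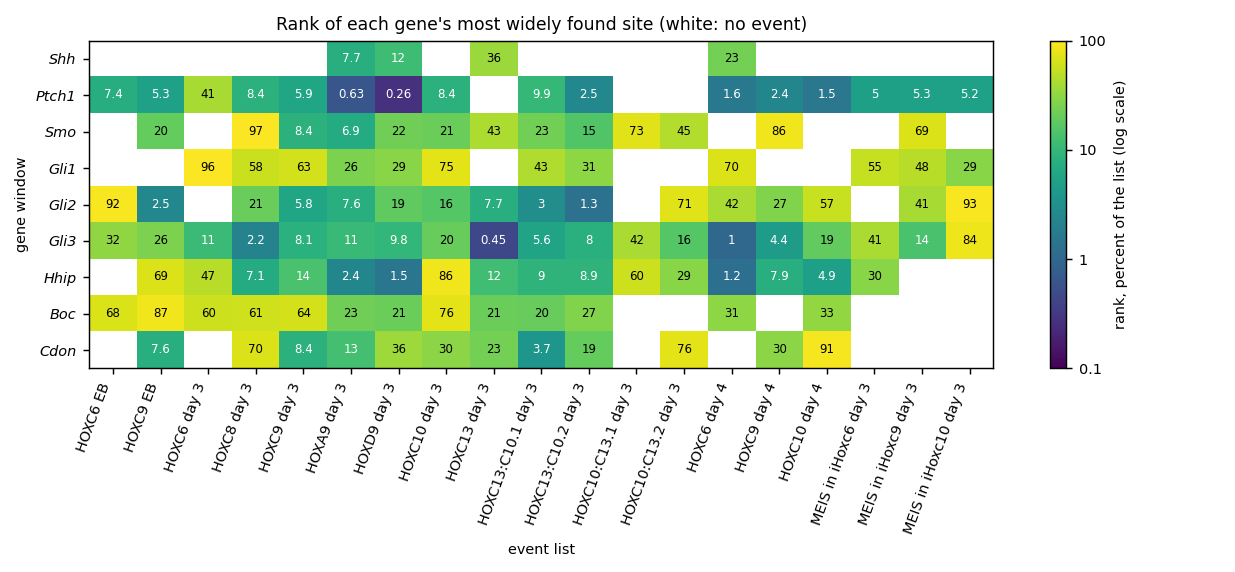
Percent rank of the event at each gene's most widely found site (rows) in each HOX and MEIS list (columns), on a log colour scale where darker means nearer the top of the list; white cells hold no event. The Ptch1 row reaches 0.26% for HOXD9 and the Gli3 row 0.45% for HOXC13, while no cell of the Gli1 row is under 25.7%.

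The series allows the stage to be compared for HOXC6 and HOXC9, from EBs without a labelled hedgehog agonist to day 3 and day 4 with SAG. Of 214 sites with a HOXC9 event at any stage, 123 were found in EBs only (57.5%, 50.6 to 64.2%, against 54.3% of HOXC9 sites over the genome), 31 at day 3 only (14.5% here and 14.5% over the genome), 7 at day 4 only (3.27% against 3.35%) and 19 at all 3 stages (8.88%, 5.43 to 13.5%, against 10.5%), with 11 at day 3 and day 4, 22 in EBs and at day 3 and 1 in EBs and at day 4. For HOXC6, of 116 sites, 45 were found in EBs only (38.8%, 29.9 to 48.3%, against 34.5%), 1 at day 3 only (against 1.2%), 40 at day 4 only (34.5%, 25.9 to 43.9%, against 43.4%) and 8 at all 3 stages (6.90%, 3.02 to 13.14%, against 3.3%), with 14 at day 3 and day 4 and 8 in EBs and at day 4. The genome's share lay inside the interval in each of these cases where one is given. The HOXC9 lists held 128388 events in EBs, 74085 at day 3 and 44024 at day 4. Those of HOXC6 held 44751, 17900 and 69297, and counts by stage move with these lengths. Gene by gene, with no such background computed, EB-only HOXC9 sites numbered 32 of 49 at Gli3, 26 of 46 at Gli2, 15 of 26 at Ptch1, 14 of 31 at Hhip, 11 of 23 at Cdon, 10 of 18 at Boc and 8 of 12 at Smo. They numbered 4 of 6 at Gli1 and 3 of 3 at Shh. Gli2 alone held 7 of the 19 HOXC9 sites found at all stages and 6 of the 11 found at day 3 and day 4 without EBs. Of all 214 HOXC9 sites, Gli2 held 46. For HOXC6, Ptch1 held 12 of the 40 sites found at day 4 only and 25 of the 116 found at any stage. Gli2 held 14 of the 45 EB-only HOXC6 sites and 30 of the 116.

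**Figure D4:**
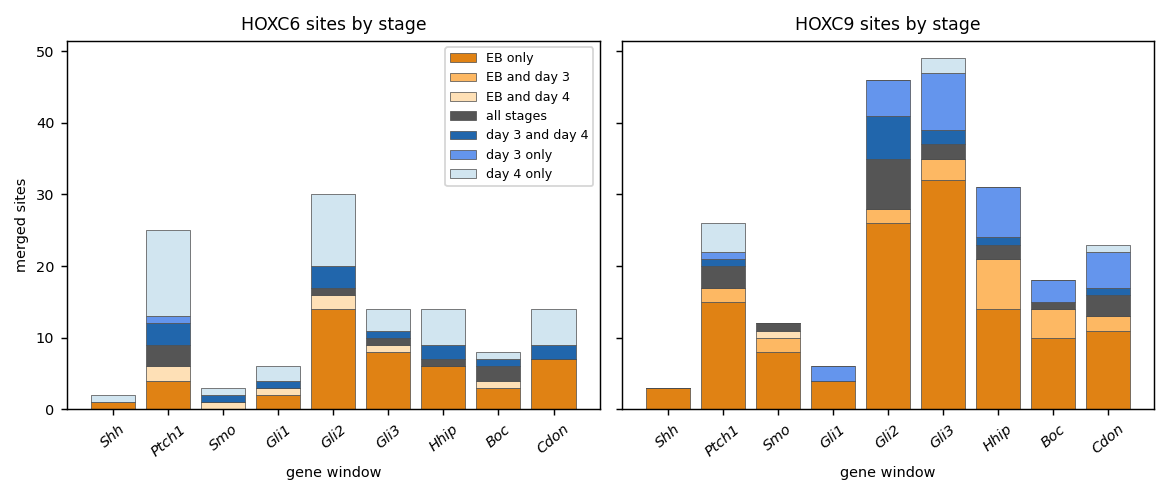
Merged sites of HOXC6 (left) and HOXC9 (right) in each gene window, stacked by the stages that hold an event: EBs, day 3 and day 4. EB-only sites make up 32 of the 49 HOXC9 sites at Gli3, and 12 of the 25 HOXC6 sites at Ptch1 have an event at day 4 only. The lists differ in length between stages, and these counts move with it.

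Shares of events carried from stage to stage were set beside those of the whole lists. Of 168 EB HOXC9 events in the windows, 42 (25.0%, interval 18.6 to 32.3%) had a day 3 HOXC9 event within 100 bp, against 23.5% of the whole EB list. In reverse, 41 of 84 day 3 HOXC9 events (48.8%, 37.7 to 60.0%) had an EB event, against 40.4%. With both lists at the length of the shorter, the 2 shares were 33 of 100 and 32 of 84, or 33.0% and 38.1%, against 28.7% and 28.1% of the lists cut in this way. For HOXC6, 8 of 63 EB events (12.7%, 5.65 to 23.5%) had a day 3 event against 7.38%, and 8 of 23 day 3 events (34.8%, 16.4 to 57.3%) had an EB event against 18.1%. Of the day 4 events, 18 of 74 for HOXC6 (24.3%, 15.1 to 35.7%) had an EB event, against 12.3% of the whole list, and 21 of 39 for HOXC9 (53.8%, 37.2 to 69.9%), against 45.6%. At equal length these were 16 of 48 for HOXC6 (33.3%, 20.4 to 48.4%) against 14.7%, and 16 of 39 for HOXC9 (41.0%, 25.6 to 57.9%) against 23.1%, so that both shares lay above those of the lists. EB lists also differ from the later lists in hours of Dox and in control library, and stage cannot be told apart from these.

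From day 3 to day 4, HOXC6 kept 21 of 23 day 3 events (91.3%, 72.0 to 98.9%) against 92.4% over its list, and HOXC10 kept 17 of 31 (54.8%, 36.0 to 72.7%) against 46.4%. HOXC9 kept 31 of 84 (36.9%, 26.6 to 48.1%), below the 49.4% of its whole list. It kept 14 of 21 at Gli2 and 4 of 7 at Ptch1, but 3 of 17 at Hhip, 4 of 15 at Gli3 and 1 of 8 at Boc. Length matters to these values, since HOXC6 has a longer list at day 4 and HOXC9 a shorter one. The day 3 and day 4 lists also differ in hours of Dox and in control library (20.6 against 4.72 M control reads). For HOXC6 the signal fraction was 0.07 to 0.08 at day 3 and 0.304 to 0.311 at day 4. Day cannot be told apart from these. At equal length HOXC6 kept 12 of 23 (52.2%, 30.6 to 73.2%) against 64.6%, HOXC10 12 of 22 (54.5%, 32.2 to 75.6%) against 52.4% and HOXC9 25 of 41 (61.0%, 44.5 to 75.8%) against 67.0%. These intervals overlapped widely, and a difference between the factors was not shown.

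The best-ranked stage-specific events lay in introns of Ptch1, Cdon and Gli2. At Ptch1 +43.0 kb HOXC6 had 518.1 reads in EBs (6.55%) with HOXC9 at 328.7 (16.0%), and no list from patterned cells had an event. At Cdon +74.9 kb HOXC9 had 2123.5 reads in EBs (0.89%) with HOXC6 at 353.1 (8.91%), again with no later event. Both sites were thus shared by the 2 factors in EBs. At Gli2 +6.09 kb HOXC6 had 275.6 reads at day 3 (5.06%) and 1338.6 at day 4 (0.74%), beside HOXC8 with 333.7 (6.88%), and MEIS had 32.0 reads in iHoxc6 and 25.6 in iHoxc9 cells. At Gli2 +194 kb HOXC9 had 345.1 reads at day 3 (12.6%) and 148.4 at day 4 (21.6%), in a site of 14 lists that included MEIS in all 3 lines. In EBs as a whole, 51 of 63 HOXC6 events (81.0%, 69.1 to 89.7%) had an EB HOXC9 event, against 71.7% of the whole list, and at equal length 35 of 63 (55.6%, 42.5 to 68.1%) against 40.5%.

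The next comparison was among the full-length factors at day 3. At least 1 of the 7 was present at 226 of the 387 sites, and the shares below are set beside those of 198764 such sites over the genome, merged in the same way. Lists differ in length, from 17900 HOXC6 events to 115879 HOXC13 events, and these counts move with it. Posterior factors without HOXC6 or HOXC8 held 185 sites (81.9%, 76.2 to 86.7%) against 77.5%, and HOXC6 or HOXC8 alone held 4 (1.77%, 0.484 to 4.47%) against 5.32%. All 7 factors were at 6 sites (2.65%, 0.980 to 5.69%) against 1.6%. HOXC13 alone held 96 (42.5%, 35.9 to 49.2%) against 42.1%, 28 of them at Gli3 and 24 at Hhip, and the group 9 factors alone held 61 (27.0%, 21.3 to 33.3%) against 22%. HOXC10 alone held 0 against 0.466%. Apart from the central factors alone, each interval held the share over the genome. The 6 sites with all factors were Gli3 +81.1 kb, Hhip +3.59 kb, Boc +27.7 kb and 3 further intronic Ptch1 sites at +1.78, +4.31 and +47.3 kb, the last 3 named after their values were seen.

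HOXC10 events were largely a subset of HOXC9 events, as in the whole lists. Of 31 HOXC10 events, 27 (87.1%, 70.2 to 96.4%) had a HOXC9 event, against 81.3%, and 27 of 84 HOXC9 events (32.1%, 22.4 to 43.2%) had a HOXC10 event, against 30.4%. With both lists cut to equal length the shares were 16 of 31 (51.6%) against 48.4% and 16 of 28 (57.1%) against 50.8%. Lists of equal length give nearly equal shares in both directions by construction, so these values cannot decide on the asymmetry. For the central pair, 22 of 23 HOXC6 events (95.7%, 78.1 to 99.9%) had a HOXC8 event, against 90.2%, and 22 of 40 HOXC8 events (55.0%, 38.5 to 70.7%) had a HOXC6 event, above the 37% of the whole list. At equal length these were 12 of 23 (52.2%) against 68.2% and 12 of 16 (75.0%, 47.6 to 92.7%) against 70.3%, whose interval held the share of the list. HOXC9 was also present at 19 of 23 HOXC6 events (82.6%, 61.2 to 95.0%) against 69.8%, at 56 of 83 HOXA9 events (67.5%, 56.3 to 77.4%) against 67.4%, at 47 of 81 HOXD9 events (58.0%, 46.5 to 68.9%) against 55.5%, and at 32 of 136 HOXC13 events (23.5%, 16.7 to 31.6%) against 22.1%.

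The chimeras ask which end of the protein sets the sites. Those with the HOXC13 homeodomain had few events in these windows, 29 of 61482 (0.0472% of the list) for HOXC10:C13.1 and 45 of 86293 (0.0521%) for HOXC10:C13.2, against 0.117% for HOXC13 and 0.115% for HOXC10. The few they had were shared with HOXC13 more often than over their whole lists, 22 of 29 (75.9%, 56.5 to 89.7%) against 49.5% and 34 of 45 (75.6%, 60.5 to 87.1%) against 47%. HOXC10 too was near a larger share of them than over the whole lists. It was near 7 of 29 (24.1%, 10.3 to 43.5%) against 6274 of the 61482 events of the whole list (10.205%), and near 10 of 45 (22.2%, 11.2 to 37.1%) against 7.89%. Of these events, 13 and 16 lay at Gli3, and Boc and Gli1 had none.

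The chimeras with the HOXC10 homeodomain had 124 and 111 events. HOXC13:C10.1 had HOXC13 near 54 of 124 (43.5%, 34.7 to 52.7%) against 37.5% and HOXC10 near 30 of 124 (24.2%, 17.0 to 32.7%) against 21.9%. HOXC13:C10.2 had HOXC13 near 40 of 111 (36.0%, 27.1 to 45.7%) against 28.5% and HOXC10 near 35 of 111 (31.5%, 23.0 to 41.0%) against 31.3%. The parents' lists are unequal in length, and with both cut to 26873 events the order turned. HOXC13 was then near 20 of 124 (16.1%) against 15.4% and HOXC10 near 30 of 124 (24.2%) against 21.9% for HOXC13:C10.1, and near 17 of 111 (15.3%) against 11.4% and 35 of 111 (31.5%) against 31.3% for HOXC13:C10.2. Over the whole lists the order of the 2 parents at this length was the same. With the same parent lists HOXC10:C13.1 had HOXC13 near 10 of 29 (34.5%, 17.9 to 54.3%) against 13.4% and HOXC10 near 7 (24.1%, 10.3 to 43.5%). HOXC10:C13.2 had HOXC13 near 14 of 45 (31.1%, 18.2 to 46.6%) against 14.3% and HOXC10 near 10 (22.2%, 11.2 to 37.1%). Their order did not turn, but the intervals overlapped widely and a difference between the parents was not shown. Of 175 sites with a chimera, 44 (25.1%, 18.9 to 32.2%) held no full-length day 3 factor, below the 39.3% over the genome, and 13 of them lay at Gli3.

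**Figure D5:**
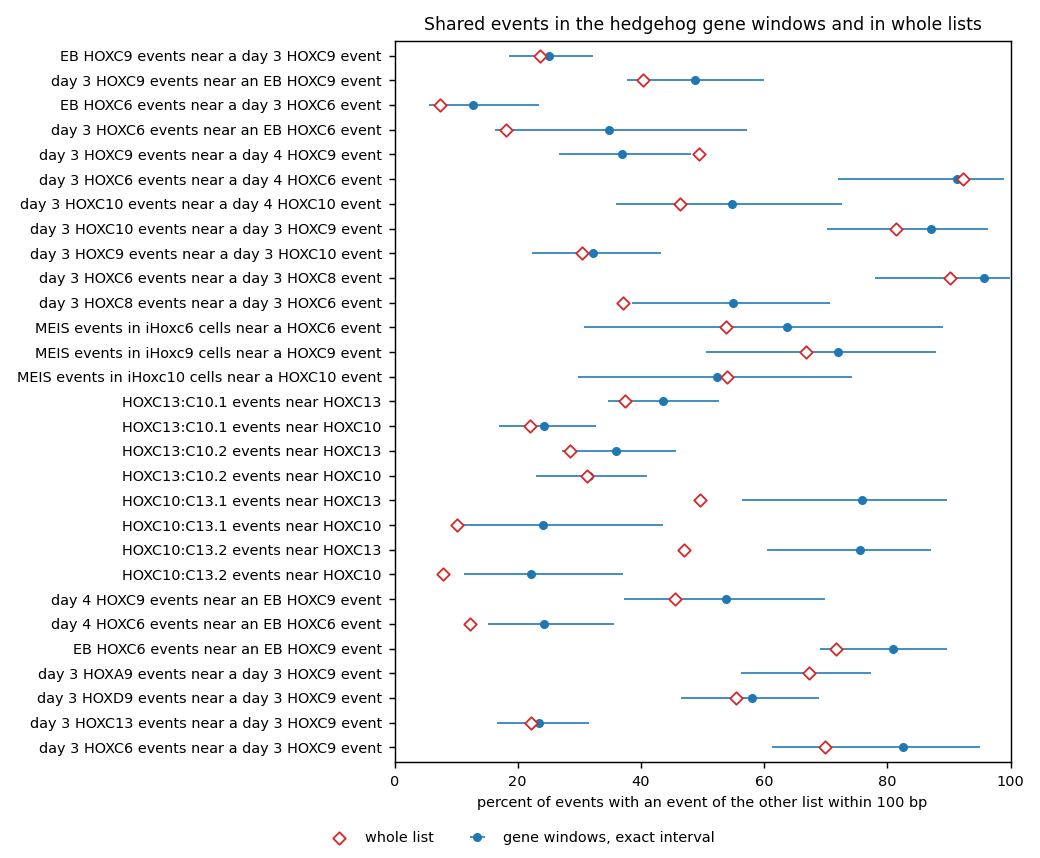
Percent of events of the first list named that have an event of the second list within 100 bp, in the 9 gene windows (blue, with exact 95% intervals that cover counting of sites) and over the whole list (red diamonds). Among other pairs, the red diamond lies left of the interval for HOXC10:C13.1 and HOXC10:C13.2 events near HOXC13, at 49.5% and 47% against 75.9% and 75.6%, and right of it for day 3 HOXC9 events near day 4 HOXC9, at 49.4% against 36.9%.

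MEIS, a homeodomain partner of Hox proteins, was found at 33 sites, in 11 events in iHoxc6 cells, 25 in iHoxc9 cells and 21 in iHoxc10 cells, and never at Shh or Boc. Gli2 held 16 of the 33 sites and 12 of the 21 events in iHoxc10 cells. A HOXC6 event lay near 7 of 11 MEIS events in iHoxc6 cells (63.6%, 30.8 to 89.1%) against 53.8%, a HOXC9 event near 18 of 25 in iHoxc9 cells (72.0%, 50.6 to 87.9%) against 66.8%, and a HOXC10 event near 11 of 21 in iHoxc10 cells (52.4%, 29.8 to 74.3%) against 53.9%. The MEIS lists rest on 1 library each and the HOX lists are longer. With both lists at the length of the shorter, the share was 7 of 25 in iHoxc9 cells (28.0%) and 5 of 21 in iHoxc10 cells (23.8%), against 36.7% and 37.9% of the lists cut in this way. The best MEIS event of iHoxc6 and iHoxc9 cells was at Ptch1 +18.9 kb, with 190.6 reads (5.03%) and 232.7 reads (5.25%), and iHoxc10 cells had 178.7 reads there (5.18%). The best event of iHoxc10 cells lay at Gli3 +79.0 kb with 217.8 reads (3.17%), against 93.9 (22.7%) in iHoxc6 and 98.9 (21.9%) in iHoxc9 cells. The sequence at that site held 1 TGACAG and none of TAAT, TTTAT or TTTAC, and HOX events there ranked at 47.5% or lower.

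Of the MEIS sites, 8 were found in all 3 lines, 2 of them at Gli2, 2 at Gli3 and 2 at Ptch1. MEIS without a HOX event was found at 4 of the 33 sites (12.1%, 3.40 to 28.2%) against 11.8% over the genome, all at Gli2. They lay 252, 14.3, 14.0 and 6.39 kb downstream of the start, were picked out after their values were seen, and held between 19.4 and 58.0 reads. PBX had an event in 0 of the 9 windows in either line, where 16.9% of all protein-coding windows held an event in iHoxc9 cells and 2865 of 21938 windows in iHoxc10 cells. The lists held 1165 and 848 events in all, and a count of 0 allows up to 0.258% and 0.354% of them to lie in the windows. Their signal fractions were 0.009 and 0.008, and the paper describes the signal of the PBX antibody as weak. The counts of 0 therefore do not show that PBX was absent from these genes.

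The TTTAT word lay within 50 bp of 36 of 84 day 3 HOXC9 events (42.9%, 32.1 to 54.1%) against 62.4% of all HOXC9 events, and of 6 of 23 HOXC6 events (26.1%, 10.23 to 48.4%) against 38.4%, which its interval holds. Not all lists had a lower share in the windows, since day 4 HOXC10 had 50.0% against 40.1%. The difference between HOXC9 and HOXC6 was 16.8 percentage points, and 10.0 among events with q below 1e-06. TTTAC lay at 60 of 136 HOXC13 events (44.1%, 35.6 to 52.9%) against 42.8%, and at 15 of 84 HOXC9 events (17.9%, 10.4 to 27.7%) against 27.7%, a difference of 26.3 percentage points, which was 14.0 when 25 bp to each side were searched. In windows 1 kb to each side of the events TTTAC was present at 14.3% for HOXC13 and 17.9% for HOXC9, and TTTAT at 20.8% for HOXC9 and 17.4% for HOXC6. The PBX-Hox word TGATTTAT lay at 9 of 81 HOXD9 events (11.1%) against 8.75%, and at 5 of 84 HOXC9 events (5.95%) against 5.93%.

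Sites that hold the word of the GLI factors themselves, GACCACCCA on either strand, are printed because Ptch1 is known to be regulated by GLI proteins. The word was found within 50 bp of the middle of 4 of the 387 sites, 3 of them at Ptch1. Each line shows the word in capitals with 10 bases to each side, on the plus strand.
Ptch1 +0.118 kb (chr13:63573455-63573483): gccctcggcgTGGGTGGTCtgccgcgcca
Ptch1 +4.31 kb (chr13:63569275-63569303): ctgctcgactTGGGTGGTCagggctgagg
Ptch1 +7.20 kb (chr13:63566425-63566453): aaagtagagaGACCACCCAggtaggcaac
Cdon +44.0 kb (chr9:35465119-35465147): agaggagcctTGGGTGGTCttggcagaaa
The Ptch1 +0.118 kb word lay in the HOXC13 and HOXD9 site near the start of the gene. At Ptch1 +4.31 kb, a site of 12 lists with 461.6 HOXC6 and 464.0 HOXC9 reads in EBs, the word was centred 1 base from the middle of the merged site. The Ptch1 +7.20 kb site occurred in 11 lists and the Cdon +44.0 kb site in the HOXC13 list only. By event, the word was at 2 of 31 day 3 HOXC10 events in the windows (6.45%, 0.791 to 21.4%) against 0.0707% of the whole list. This was the highest share of any list, but it rests on 2 events. The HOXC10 list holds both the Ptch1 +4.31 kb and the Ptch1 +7.20 kb site. So do other lists, among them those of HOXA9, HOXD9, HOXC8, day 3 HOXC9 and day 4 HOXC6. The word was at 2 of 136 HOXC13 events against 0.0786%. It was at 0 of 83 HOXA9, 0 of 74 day 4 HOXC6 and 0 of 26 day 4 HOXC10 events. The HOXA9 and day 4 HOXC6 events at both Ptch1 sites thus did not have the whole word within 50 bp. A word match is no evidence that a GLI protein was bound, and GLI binding was not measured.

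For the rest of the pathway, 15 further genes were examined in the same way: Dhh, Ihh, Sufu, Gas1, Kif7, Disp1, Hhat, Scube2, Evc, Evc2, Gpr161, Spop, Iqce, Lrp2 and Efcab7, which include the other hedgehog ligands, the GLI inhibitor SUFU and ciliary regulators. Their median density was 2.03 HOXC9 events per 100 kb at day 3, 3.72 for HOXC13 and 0.677 for HOXC6. The median lay above that of all protein-coding windows and below that of the 9 members in 16 of 16 HOX lists. A top 10000 event of day 3 HOXC9 fell in the windows of 4 of the 15 genes, and of day 3 HOXC6 in 7. PBX events occurred in 3 of the 15 windows in iHoxc9 cells and in 1 in iHoxc10 cells, against the same shares of all windows, 16.9% and 2865 of 21938.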

How the data were processed

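The deposited event lists come from ChIP-seq libraries that the authors aligned to mm10 with Bowtie 1.0.1 and called with MultiGPS over the pooled replicates of a condition against a control, at a q-value under 0.001. The authors ran edgeR 3.22.5 inside MultiGPS to compare binding between conditions. Picard 2.8.2 is named in the submitters' processing notes, with its step not given in the sources used here. Each list holds, as deposited, an estimated count of ChIP reads and of scaled control reads per event, the log2 fold of ChIP over control, and a score, the log2 of the q-value. Columns with the authors' edgeR comparisons between conditions hold fold changes and p-values and were not used, nor were the interval files of the same events.

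The members and lists were chosen with earlier results of these data known. Events within 50 kb of a GENCODE M21 gene were taken, merged within 100 bp and ranked by q-value, with ties broken by ChIP reads. The pooling leaves no replicate to test over, so shares were counted per event, with exact Clopper-Pearson 95% intervals, beside whole lists. Events matched at 100 bp or less. Words were searched on both strands within 50 bp. Sites were named by fixed rules: for each gene the site in the most lists and the best-ranked HOX site, the best-ranked stage-specific HOXC6 and HOXC9 sites, the best-ranked MEIS site of each line, and the best-ranked HOXC13 or chimera site without HOXC10. Other sites were named after their values were seen, as stated there. Alternatives were other flanks, distances, q-values, list lengths and word windows. Ranking the 10000 best events by reads was added after seeing the data. Patterns over merged sites were counted over the whole genome in the same way. Python 3.11.15, numpy 2.4.6, scipy 1.17.1 and matplotlib 3.10.9 were used, and the counting steps were tested on simulated data. Depth ran from 5.04 to 32.9 M reads per library. Among the other pathway genes, 1 gene of the list is not reported here and was left out of its counts and medians.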

Additional observations from a re-analysis of the deposited data

How the results depend on the processing

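No paired analysis was possible because the deposited lists pool the replicates of each condition, and for the same reason no replicate could be left out. Of 181 alternatives over 21 results, 35 moved the value, 5 turned its sign and 141 did neither. A count had moved when it changed by over 1.5 times, a share when it left its 95% interval, and a difference when it changed by more than the intervals of its 2 shares combined. Keeping the 10000 best-ranked events of each list left 74 merged sites. With those events the shares were 35.3% of EB HOXC9 near day 3 HOXC9, 14.3% of day 3 HOXC6 near EB HOXC6, 61.5% of day 3 HOXC9 near day 4 HOXC9, 50.0% of day 3 HOXC6 near day 4 HOXC6, 53.8% of HOXC9 near HOXC10, 64.3% of HOXC6 near HOXC8, 81.8% of HOXC8 near HOXC6 and 11.8% of MEIS near HOXC10 in iHoxc10 cells. The difference between the shares near HOXC13 and near HOXC10 was then 0 percentage points for HOXC13:C10.1, -12.5 for HOXC13:C10.2 and 25.0 for HOXC10:C13.2.

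With both lists at equal length by q-value, and then by reads, the shares were 33.0 and 34.0% of EB HOXC9 near day 3 HOXC9, 61.0 and 64.1% of day 3 HOXC9 near day 4 HOXC9, 52.2 and 60.9% of day 3 HOXC6 near day 4 HOXC6, 51.6 and 51.6% of HOXC10 near HOXC9, 57.1 and 59.3% of HOXC9 near HOXC10, 52.2 and 56.5% of HOXC6 near HOXC8, and 75.0 and 72.2% of HOXC8 near HOXC6. For MEIS they were 28.0 and 32.0% in iHoxc9 cells, 23.8 and 23.8% in iHoxc10 cells and, by reads, 27.3% in iHoxc6 cells. The differences were -8.06 and -5.65 percentage points for HOXC13:C10.1, -16.2 and -15.3 for HOXC13:C10.2, 10.3 and 10.3 for HOXC10:C13.1, and 8.89 and 8.89 for HOXC10:C13.2. Among events with q below 1e-06, the MEIS share in iHoxc10 cells was 16.7%. These alternatives shorten lists by construction. Any further cause was not tested.

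Library depth, signal fraction and list length differ between conditions, and the intervals cover the counting of sites only. The EB, day 3 and day 4 lists differ from each other in hours of Dox and in control library. Tag antibodies differ between some of the lists compared.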
